A study of Mus musculus with 16 samples.

Results

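Open chromatin at 7 genes of the Notch pathway was followed through 4 stages of mouse thymocyte development. The genes were 3 receptors (*Notch1*, *Notch2* and *Notch3*) and 4 genes known as Notch targets in T cell precursors (*Hes1*, *Dtx1*, *Nrarp* and *Ptcra*). A peak was taken when its whole interval lay in the gene body or within 20 kb on either side of it, in mm10 with GENCODE M21 gene models. The rule took 154 of 150139 peaks at DN, 115 of 107110 at DP, 104 of 115074 for SP4 and 98 of 104411 for SP8. Intervals of any stages with 1 bp or more in common were joined, which gave 177 regions at the 7 genes out of 185978 in all. The rule used position only and no measured value, but the 7 genes were chosen with earlier results of these data known.

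The cells came from wild type C57BL/6J mice, 9 weeks old, with 4 mice and 4 sorted populations per mouse, 16 ATAC-seq libraries in all. Double negative cells (DN) lacked CD4, CD8 and CD3, double positive cells (DP) carried CD4 and CD8, and CD4 and CD8 single positive cells (SP4, SP8) carried CD3 and either coreceptor. Cells binding a mixture of antibodies against other blood lineages had been gated out. In ATAC-seq a transposase cuts accessible DNA, so a peak of reads marks open chromatin. The authors pooled the reads of the 4 mice before calling peaks, so each stage had a single peak list, no value below has an error over mice, and no test between stages was possible. A DN sort also holds cells of several successive steps, whose relative numbers and openness per cell cannot be told apart here.

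Notch receptors are cut after they meet a ligand on a neighbouring cell, and the freed intracellular part enters the nucleus, where it joins the DNA-binding protein RBPJ and a Mastermind co-activator at target genes. In the thymus, Dll4 on epithelial cells drives this signal in early precursors, where it is needed for T cell commitment and for passage through the pre-TCR checkpoint (beta selection). The signal declines as cells become DP. Among the targets, Hes1 is a repressor of transcription, Dtx1 (Deltex) acts on receptor trafficking, Nrarp is a feedback inhibitor of the nuclear complex, and *Ptcra* encodes pre-Tα, the partner of TCRβ in the pre-TCR. Notch3 is a further receptor of early thymocytes, and Notch2 is better known from marginal zone B cells.

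Sequences are shown first for the regions on which the results below turn. The height of a peak is given throughout as its percentile by fold enrichment at the summit within its own list, so that a peak at 90 was higher than 90% of its list. Where a percentile by q-value is given, a higher one means a more significant peak. Each line holds 200 bases around the highest summit, or for *Ptcra* the 250 bases before the RefSeq start (GRCm38.p6 promoter table, in which *Hes1* was missing), in the direction of the gene. Capitals mark every match, on either strand, to 8 words. The RBPJ word was GTGGGAA, and its core TGGGAA, which lies within it, is shared with Ikaros. The E-boxes were CAGCTG, an E protein site, and CAGGTG, which other basic helix-loop-helix and zinc finger factors also bind. The word for RUNX was TGTGGT, that for ETS factors was AGGAAG, that for GATA factors was AGATAA, and that for TCF7 and LEF1 was CTTTGA. Neighbouring matches can run together.

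The *Ptcra* promoter (chr17:46763713-46763962, minus strand) and the region 4.40 kb upstream (chr17:46768017-46768216, minus strand, inside a predicted gene, Gm26904) are shown because both were lower or not called at the SP stages. An enhancer upstream of *Ptcra* is known from transgenic mice, and whether this region is that element was not tested. The promoter held 2 copies of the core TGGGAA and 2 of the E-box CAGCTG, and the upstream region held 1 core, 1 RUNX word and 2 CAGGTG boxes.
Ptcra promoter: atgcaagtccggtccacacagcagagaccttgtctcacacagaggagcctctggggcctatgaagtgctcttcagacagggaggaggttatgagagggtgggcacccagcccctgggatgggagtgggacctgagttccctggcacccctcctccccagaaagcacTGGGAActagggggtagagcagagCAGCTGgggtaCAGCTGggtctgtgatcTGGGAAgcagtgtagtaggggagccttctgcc
Ptcra -4.40 kb: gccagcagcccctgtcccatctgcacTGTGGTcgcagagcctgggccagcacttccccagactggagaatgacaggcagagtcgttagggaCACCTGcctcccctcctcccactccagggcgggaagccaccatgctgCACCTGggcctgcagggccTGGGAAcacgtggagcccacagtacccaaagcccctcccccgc

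For *Notch1*, 3 intronic regions are shown. The region at +3.07 kb from the 5′ end of the gene (chr2:26513494-26513693, minus strand) and that at +28.0 kb (chr2:26488540-26488739, minus strand) were lower at the SP stages. The region at +33.0 kb (chr2:26483552-26483751, minus strand) was high at the SP stages and had no DN peak. The regions at +28.0 and +33.0 kb each held the full RBPJ word, and the region at +3.07 kb held a CAGGTG box alone.
Notch1 +3.07 kb: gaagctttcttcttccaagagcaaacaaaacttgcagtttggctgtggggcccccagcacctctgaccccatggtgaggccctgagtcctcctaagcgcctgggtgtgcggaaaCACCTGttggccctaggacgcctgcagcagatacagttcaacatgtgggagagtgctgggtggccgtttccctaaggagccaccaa
Notch1 +28.0 kb: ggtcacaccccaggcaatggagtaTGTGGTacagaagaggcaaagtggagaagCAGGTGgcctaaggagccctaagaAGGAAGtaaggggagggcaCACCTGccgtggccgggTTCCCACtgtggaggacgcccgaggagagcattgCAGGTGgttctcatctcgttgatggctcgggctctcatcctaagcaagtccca
Notch1 +33.0 kb: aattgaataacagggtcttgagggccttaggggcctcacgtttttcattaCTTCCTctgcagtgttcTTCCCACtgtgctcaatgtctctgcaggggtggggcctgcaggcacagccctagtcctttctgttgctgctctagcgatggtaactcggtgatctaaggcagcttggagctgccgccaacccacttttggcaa

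For *Notch3*, the region 3.19 kb upstream (chr17:32169944-32170143, minus strand, intergenic) had peaks at DN and DP and none at the SP stages, and the intronic region at +4.62 kb (chr17:32162133-32162332, minus strand) was higher at the SP stages. For *Dtx1*, the region at +37.5 kb (chr5:120674336-120674535, minus strand, inside the neighbouring gene Rasal1) fell in rank at the SP stages, and the intergenic region 14.7 kb upstream (chr5:120726538-120726737, minus strand) had its highest peak at DN and none at SP8.
Notch3 -3.19 kb: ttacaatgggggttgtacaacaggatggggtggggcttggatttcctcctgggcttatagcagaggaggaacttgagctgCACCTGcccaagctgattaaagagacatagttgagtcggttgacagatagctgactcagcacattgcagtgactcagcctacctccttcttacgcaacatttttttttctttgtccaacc
Notch3 +4.62 kb: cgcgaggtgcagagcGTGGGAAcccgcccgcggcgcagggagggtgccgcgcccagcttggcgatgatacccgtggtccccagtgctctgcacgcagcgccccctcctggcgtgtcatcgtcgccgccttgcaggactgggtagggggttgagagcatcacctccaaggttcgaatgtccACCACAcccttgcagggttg
Dtx1 +37.5 kb: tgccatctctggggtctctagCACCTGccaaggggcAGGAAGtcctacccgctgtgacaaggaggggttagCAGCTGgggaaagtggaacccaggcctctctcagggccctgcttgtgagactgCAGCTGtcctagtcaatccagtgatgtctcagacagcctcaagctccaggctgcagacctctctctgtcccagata
Dtx1 -14.7 kb: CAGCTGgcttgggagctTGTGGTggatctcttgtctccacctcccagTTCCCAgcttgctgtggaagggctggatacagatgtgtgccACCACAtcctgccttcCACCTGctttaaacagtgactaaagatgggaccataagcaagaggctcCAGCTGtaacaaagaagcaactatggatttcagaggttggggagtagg

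The 7 genes had more peaks at DN than at any other stage, and each of the 7 had more DN peaks than SP4 or SP8 peaks. Among all 20753 protein-coding genes on chromosomes 1 to 19, 57.2% did. The DN list is itself the longest of the 4. DN peaks at the 7 genes were 1.34 times as many as DP peaks, 1.48 times as many as SP4 peaks and 1.57 times as many as SP8 peaks, against 1.40, 1.30 and 1.44 times for the whole lists. Per 10000 peaks of the list, the 7 genes held 10.3 at DN, 10.7 at DP, 9.04 for SP4 and 9.39 for SP8. When each list was cut to its 104411 most significant peaks (highest −log10 q-value), the length of the SP8 list, the counts became 105 at DN, 113 at DP, 96 for SP4 and 98 for SP8, and 4 of the 7 genes (*Notch1*, *Notch2*, *Hes1* and *Ptcra*) still had more DN peaks than SP4 or SP8 peaks, against 27.0% of coding genes. The excess of DN over DP peaks was absent in lists of equal length.

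In the full lists, counts fell at every step from DN through DP and SP4 to SP8 for *Notch1*, *Notch2* and the target *Hes1*. *Notch1* had 40 DN, 32 DP, 24 SP4 and 22 SP8 peaks, *Notch2* had 38, 25, 21 and 20, and *Hes1* had 10, 7, 6 and 5. *Notch3* had 16, 11, 13 and 9 peaks. *Dtx1* (22, 17, 19 and 20), *Nrarp* (15, 14, 14 and 14) and *Ptcra* (13, 9, 7 and 8) did not fall at every step either. With lists of equal length, *Notch1* had 28, 32, 23 and 22 peaks, *Notch2* had 25, 25, 18 and 20, and *Hes1* had 7, 6, 6 and 5. None of these genes then fell at every step. *Dtx1* had 12, 17, 17 and 20 and *Nrarp* had 12, 13, 13 and 14 in these lists, so these 2 had their fewest peaks at DN.

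**Figure D1:**
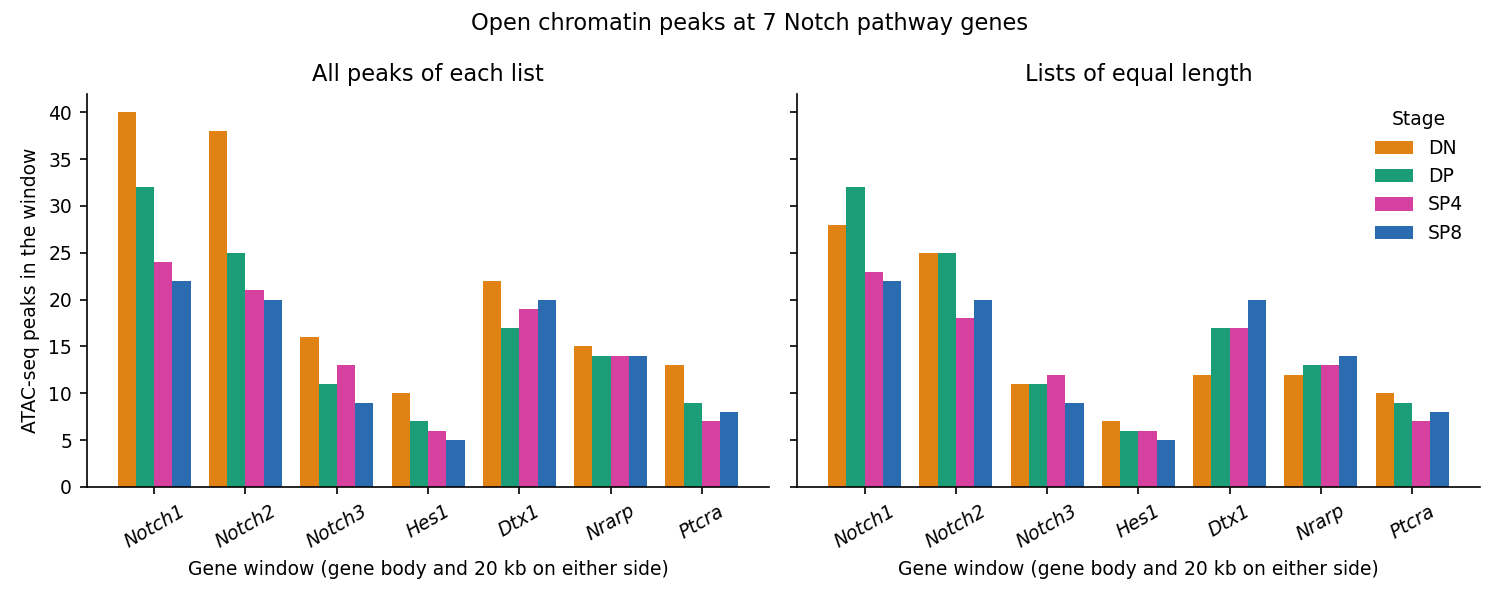
Number of ATAC-seq peaks (vertical axis) in the window of each of the 7 genes, by stage, with all peaks of each list on the left and with the 104411 peaks of highest −log10 q-value per list on the right; each bar is 1 pooled list, so there are no error bars. DN bars are the highest for all 7 genes on the left, and for *Dtx1* and *Nrarp* the lowest on the right.

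Regions were dense at *Notch1*, with 45 regions wholly inside a window of 98.8 kb. That is 45.6 per 100 kb, more than at 99.5% of coding genes, against a median of 13.8. *Nrarp* held 37.6 per 100 kb (97.3% of coding genes lower), *Dtx1* 33.5 (94.5%), *Hes1* 32.2 (93.3%), *Notch3* 25.6 (83.0%), *Notch2* 24.9 (81.6%) and *Ptcra* 22.9 (77.0%). Of the 177 regions, 88 lay in the body of their gene, 47 upstream and 42 downstream. By annotation, 17 (9.60%) were at a promoter, meaning the 200 bp before a transcription start site, 29 (16.4%) at an exon, 78 (44.1%) in an intron and 53 (29.9%) between genes, against 10.9%, 10.6%, 46.5% and 32.0% of all regions. Promoters of other genes accounted for 8 of the regions, and 7 of these 8 had a peak at each stage. Among all promoter regions of the lists, 14728 of 20278 did. The windows of *Notch1* (Sec16a), *Notch3*, *Nrarp* (Tor4a) and *Ptcra* (Cnpy3, Rpl7l1) hold such neighbours, and a region cannot be assigned to one gene from these data.

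In the full lists, the share of regions called at DP was above that of the whole genome. The share called at SP8 alone was below it but rests on 2 regions. Of the 177 regions, 140 (79.1%) were called at DN, 109 (61.6%) at DP, 98 (55.4%) for SP4 and 93 (52.5%) for SP8, against 75.7%, 53.9%, 58.3% and 53% of all regions. At all 4 stages 56 regions were called (31.6%, 95% Wilson interval 25.2 to 38.8), against 34.1% of all regions. At DN alone 38 were called (21.5%, against 21.7%), at DP alone 7 (3.95%, against 5.17%), at SP4 alone 8 (4.52%, against 7.39%) and at SP8 alone 2 (1.13%, interval 0.31 to 4.03, against 4.21%). Regions called at DN and DP and at neither SP stage numbered 15 (8.47%, interval 5.20 to 13.5, against 5.59%), and those called at SP4 and SP8 alone numbered 5 (2.82%, against 3.82%). The interval of the DP share was 54.2 to 68.4. This interval and that of the share at SP8 alone left out the value of all regions. The intervals of the other shares given above held it. Intervals cover counting error only, and regions of 1 locus are not independent. With lists of equal length, 72.3% were called at DP (against 62.6% of all regions) and 7 of 148 (4.73%) at SP8 alone (against 7.05%). DN alone had 15 of 148 regions (10.1%, against 11.1% of all regions), and DN with DP had 12 (8.11%, against 4.64%). No intervals were computed for lists of equal length, so which of these shares differ from all regions is not settled.

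**Figure D2:**
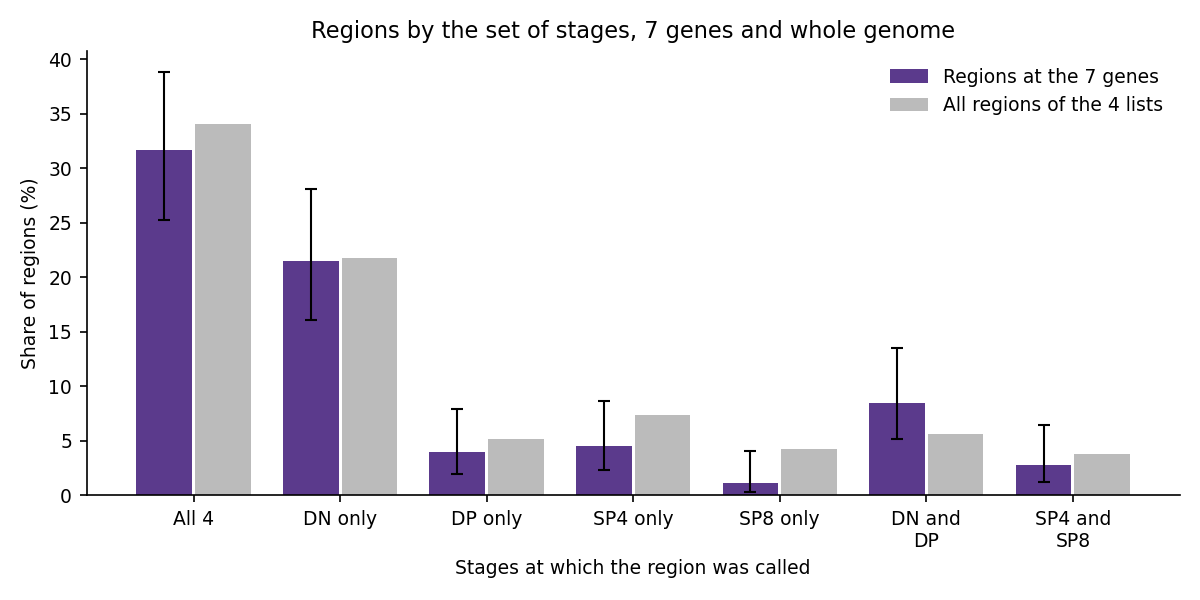
Share of regions (vertical axis, percent) by the set of stages at which they were called, for the 177 regions at the 7 genes (purple, with 95% Wilson intervals) and for all regions (grey). The purple and grey bars stand at 31.6% and 34.1% for all 4 stages and at 8.47% and 5.59% for DN with DP.

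The regions called at DN alone were mostly low by fold enrichment. Their median percentile was 16.8, against 30.2 for all DN-only regions of the genome, and 4 of the 38 reached the 50th percentile, against 22.7% of all. At *Notch1* all 10 lay between 0.25 and 11.2 by fold enrichment, and between 2.07 and 52.2 by q-value. By fold enrichment, the 13 at *Notch2* lay between 2.59 and 59.4. At *Hes1* the 5 lay between 17.8 and 72.3. The highest was the *Hes1* region described with that gene below.

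Regions that were called everywhere but stood lower at the SP stages were sought with a criterion of 30 percentile points, chosen after the values were seen. Of the 56 regions called at all 4 stages, 5 (8.93%, interval 3.87 to 19.3) stood at least 30 points lower at both SP stages than at both DN and DP, against 1.9% of all such regions. At *Notch1* 3 did, at *Dtx1* 1 and at *Ptcra* 1. In the opposite direction 1 did, at *Notch3* (1.79%, against 0.828%). Just outside the criterion were a *Dtx1* region at +1.36 kb, with a gap of 29.8 points, and a *Notch1* region at +48.0 kb, with a gap of 28.3. Ranked by q-value instead, 6 regions met the criterion. Over all regions called at all 4 stages the median percentile was 73.5 at DN, 68.2 at DP, 69.4 for SP4 and 67.1 for SP8, and over the 56 it was 49.5, 57.1, 55.8 and 52.7.

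**Figure D3:**
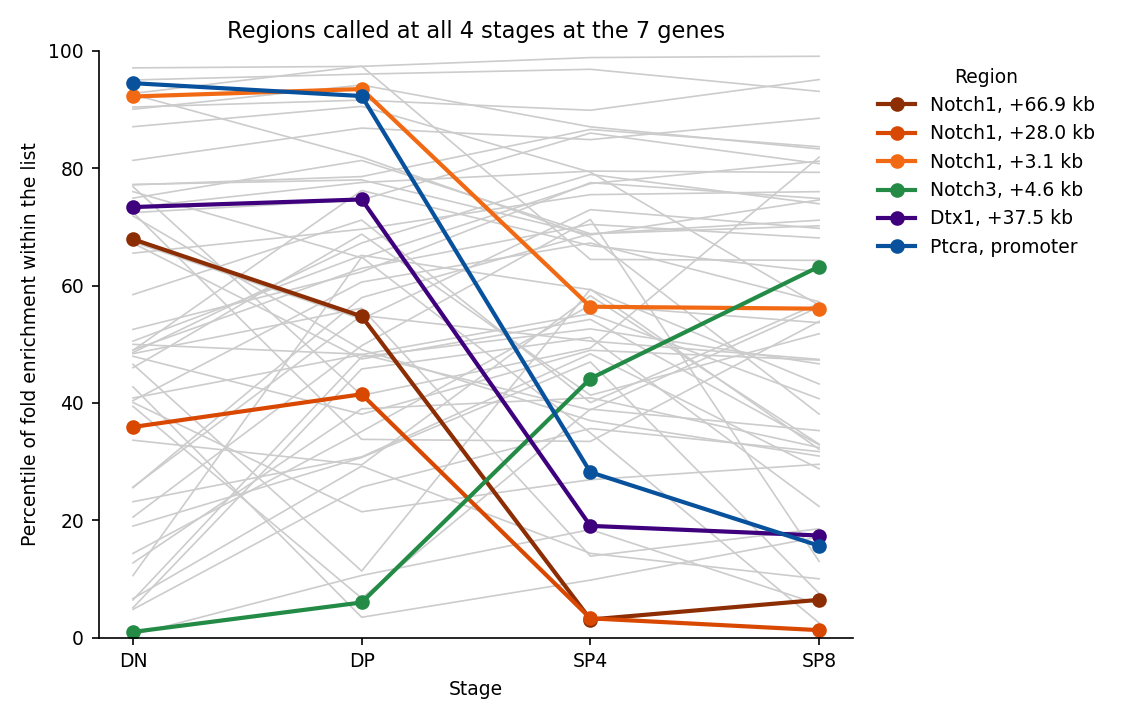
Percentile of fold enrichment within the list (vertical axis) at each stage for the 56 regions called at all 4 stages, 1 line per region. The 5 coloured regions that fall from DP to SP4, among them the *Ptcra* promoter (94.5, 92.3, 28.2 and 15.7), and the *Notch3* region that rises (1.0, 6.0, 44.2 and 63.2) are named with their distance from the 5′ end of the gene.

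*Notch1* encodes the receptor that drives T cell commitment. Its window runs over chr2:26437903-26536663 (gene ENSMUSG00000026923.15, minus strand), and 14 of its 46 regions were called at all 4 stages, 10 at DN alone and 7 at DN and DP alone. GENCODE M21 has 2 coding start sites, the RefSeq site and another 12.8 kb upstream of it at the 5′ end of the gene, over which no peak was called. The promoter region over the RefSeq site stood at percentile 25.6 at DN, 58.0 at DP, 68.8 for SP4 and 71.1 for SP8, so it was lowest at DN by rank. Its fold enrichment over local background was 3.96, 6.43, 9.20 and 10.3, and by q-value it stood at 68.8, 82.0, 86.4 and 87.5.

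Away from the promoter, *Notch1* regions moved in both directions. The region at +3.07 kb, which lies 9.77 kb upstream of the RefSeq start, stood at 92.2, 93.5, 56.4 and 56.1, with fold enrichments of 17.8, 19.3, 6.76 and 7.02. The exonic region at +48.0 kb, the highest outside a start site, stood at 92.7, 97.4, 64.5 and 64.3 (fold enrichment 18.2, 24.3, 8.22 and 8.64). Both stood above 92 at DN and DP and below 65 at both SP stages. A region beyond the gene's end, 66.9 kb from its 5′ end, stood at 67.9, 54.8, 3.1 and 6.5. The intronic region at +28.0 kb stood at 35.9, 41.5, 3.3 and 1.3. The intronic region at +33.0 kb went the other way, with no DN peak and percentiles of 25.6 at DP, 79.9 at SP4 and 82.6 at SP8. It was the highest *Notch1* peak at either SP stage.

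Many *Notch1* peaks were low by fold enrichment but not by q-value. The median percentile of its regions at DN was 11.4 by fold enrichment and 51.0 by q-value, and at SP8 28.6 and 43.6. Fold enrichment is measured against reads in the neighbourhood, and the part of the dense locus in these low values was not tested. The values of *Dtx1* at DN were 20.6 and 43.0.

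*Notch2* (ENSMUSG00000027878.11, window chr3:97993527-98170361, plus strand) had 44 regions. Every stage had a peak in 9 of them, and 16 were called at 1 stage, 13 of these at DN. Its promoter region stood at 74.9 at DN, 81.3 at DP, 68.8 for SP4 and 70.2 for SP8, a range of 12.5 points. Of the 4 regions with a peak past the 75th percentile and a missing call, 3 were highest at DN. The exonic region at +102 kb stood at 94.2 at DN, 73.0 at DP and 45.5 at SP4 and was not called at SP8, with fold enrichments of 19.6, 9.39 and 5.45. The region at +87.7 kb stood at 88.8 and 69.4 at DN and DP, was not called at SP4 and stood at 8.2 at SP8. The region at +32.9 kb stood at 86.7, 37.0 and 32.6 and was not called at SP8. The intronic region at +29.7 kb was the lowest of the 4 and was named after its values were seen, with peaks at SP4 (82.7) and SP8 (41.9) and none at DN or DP. Lower peaks moved in both directions, also outside the gene. The region 8.04 kb upstream stood at 67.8 at DN and 57.1 at DP with no SP peak, whereas the region at +72.4 kb had no DN peak and rose over 19.1, 41.3 and 67.6.

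*Notch3* (ENSMUSG00000038146.8, window chr17:32100820-32186852, minus strand), a receptor of early thymocytes, was the gene of the 7 with no promoter region called at all 4 stages. The region over its RefSeq start was called at SP4 (percentile 6.5) and SP8 (1.4), both near the bottom of the list, and not at DN or DP. The region 3.19 kb upstream of the gene had the opposite calls, with peaks at DN (68.4, fold enrichment 8.26) and DP (79.7, 11.5) and none at SP4 or SP8. Inside the gene, the intronic region at +4.62 kb rose in rank over 1.0, 6.0, 44.2 and 63.2, and by q-value over 43.4, 54.8, 61.1 and 75.1. The exonic region at +23.6 kb stood at 90.4, 91.6, 89.9 and 95.1 and was the highest *Notch3* peak at every stage.

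*Hes1* (ENSMUSG00000022528.8, window chr16:30044384-30087796, plus strand) encodes a basic helix-loop-helix repressor and is a direct target of the Notch complex. Of its 14 regions 3 were called at all 4 stages, 5 at DN alone and 3 at DP alone. The region over the 5′ end of the gene stood at 40.4 at DN, 60.6 at DP, 67.3 for SP4 and 57.2 for SP8. A separate region over the coding start site, 0.79 kb into the gene, was called at DN alone, at percentile 72.3 with a fold enrichment of 9.14. This was the highest of the 38 DN-only regions and the highest *Hes1* peak at DN. The exonic region at +2.62 kb stood at 46.0, 68.8, 41.3 and 51.8. No *Hes1* peak reached the 75th percentile by fold enrichment at any stage, but by q-value the region over the coding start site stood at 91.3 at DN and that at +2.62 kb at 76.3 at DN and 83.5 at DP.

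*Dtx1* (ENSMUSG00000029603.15, window chr5:120660202-120731927, minus strand) encodes an E3 ubiquitin ligase of the Deltex family. Of its 24 regions 11 were called at all 4 stages and 1 at DN alone. Its promoter region stood at 48.6 at DN, 67.3 at DP, 78.9 for SP4 and 73.9 for SP8, with fold enrichments of 5.47, 8.03, 12.3 and 11.2. The intronic region at +26.1 kb was among the highest peaks of each list, at 95.02, 96.0, 96.8 and 93.1, and it held 1 full RBPJ word and a second core. The region 14.7 kb upstream stood at 96.0 at DN, 65.5 at DP and 48.6 at SP4 and was not called at SP8, with a fold enrichment of 21.7 at DN and 5.75 at SP4. The region at +37.5 kb, in Rasal1, stood at 73.4, 74.7, 19.1 and 17.4. Another region in Rasal1, at +48.8 kb, was high at SP8 alone (76.2), with 6.6 at DN, 6.2 at SP4 and no call at DP.

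*Nrarp* (ENSMUSG00000078202.3, window chr2:25160758-25203339, plus strand), encodes the ankyrin repeat inhibitor of the nuclear complex. Of its 16 regions 8 were called at all 4 stages and 2 at DN alone, and none met the criterion of 30 points in either direction. Its promoter region stood at 65.5 at DN, 69.6 at DP, 75.5 for SP4 and 76.0 for SP8, a range of 10.5 points. Outside it the highest peak of any stage lay at +12.7 kb, in an exon of Tor4a, at 76.0, 64.7, 77.4 and 81.2. At DN and DP the region at the Tor4a promoter (+16.0 kb) was higher, at 77.2 and 78.0.

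*Ptcra* (ENSMUSG00000036858.8, window chr17:46735663-46783712, minus strand) encodes pre-Tα, which is used before the TCRα chain is made. The region over its start site stood at 94.5 at DN and 92.3 at DP, and at 28.2 at SP4 and 15.7 at SP8. Its fold enrichment was 19.9, 18.2, 4.23 and 3.49, and its −log10 q-value 316, 253, 6.13 and 3.92. The region stood above 92 at DN and DP and below 30 at both SP stages, and all 4 stages had a peak. Its gap of 64.1 points between the lower of DN and DP and the higher of SP4 and SP8 was the largest of the 56.

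Upstream of *Ptcra* the regions did not move together. The region at −4.40 kb was called at DN (43.6) and DP (24.4) and at neither SP stage. The region at −1.04 kb rose from 15.5 at DN to 60.8 at DP and 84.4 at SP4 and was not called at SP8. Downstream, the region at the promoter of Cnpy3 stood at 97.1, 97.3, 98.8 and 99.1.

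**Figure D4:**
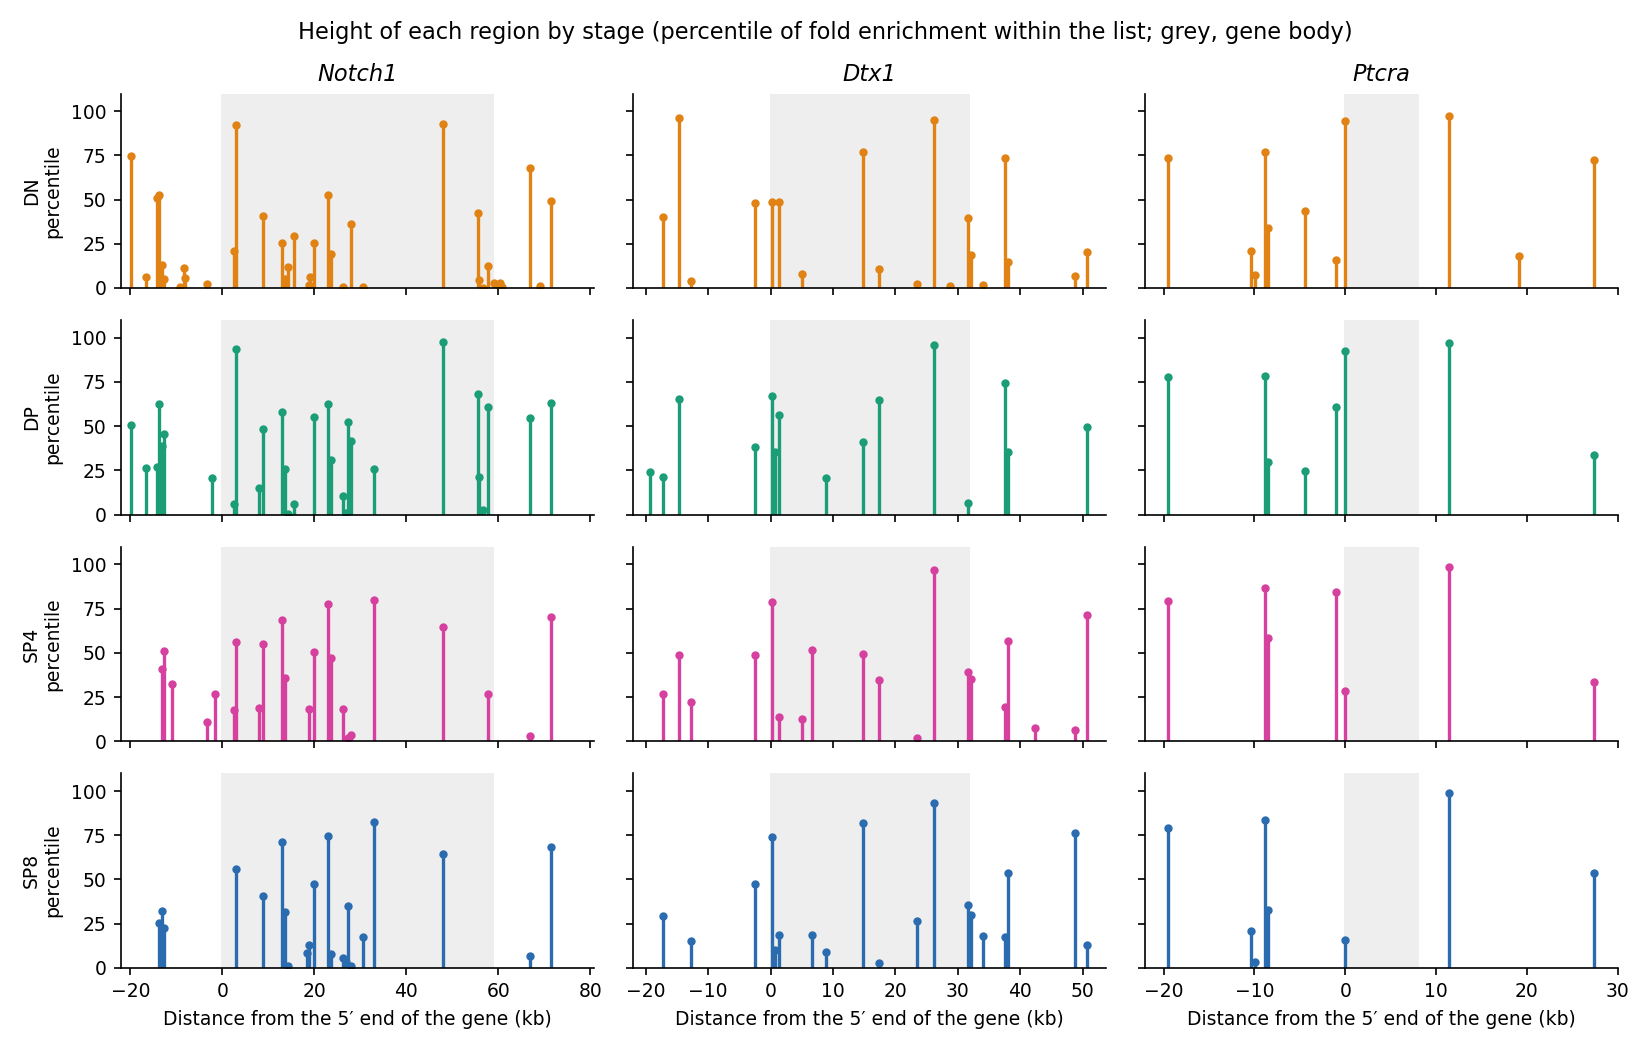
Height of each region (vertical axis, percentile of fold enrichment within the list) against the distance of its highest summit from the 5′ end of the gene (horizontal axis, kb) at *Notch1*, *Dtx1* and *Ptcra*, 1 row per stage, with the gene body in grey. At *Ptcra* the stem at 0 kb stands at 94.5 and 92.3 in the DN and DP rows and at 28.2 and 15.7 in the SP4 and SP8 rows, and at *Notch1* the stem at 33.0 kb is missing at DN and stands at 79.9 and 82.6 at SP4 and SP8.

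Across the 7 genes, tall peaks missing at some stage were no more frequent than elsewhere. A peak at or above the 75th percentile at 1 or more stages in a region not called at all 4 was found in 9 regions (5.08%, against 5.56% of all regions), 4 of them at *Notch2* and 2 at *Dtx1*. Of the 7 genes, 6 had a promoter called at all 4 stages, against 57.4% of coding genes. For *Hes1* this rests on the region over its 5′ end, as the region over its coding start site was called at DN alone. By rank, the promoters of *Notch1*, *Dtx1* and *Nrarp* were lowest at DN and that of *Ptcra* highest at DN. *Hes1* was lowest at DN by the region over its 5′ end (40.4) and highest at DN where the region over its coding start site (72.3) is counted as promoter too. The median difference between the SP and the DN and DP percentiles over all promoter regions called at all 4 stages was −0.34 points.

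The full RBPJ word GTGGGAA was found in 19 of the 177 windows of 200 bp (10.7%, interval 6.98 to 16.2), against 4.62% of all regions and 6.38% of RefSeq promoters of 300 bp. They were 6 at *Notch1*, 4 at *Notch2*, 4 at *Dtx1*, 2 at *Hes1* and 1 each at *Notch3*, *Nrarp* and *Ptcra*. Of the 19 regions 4 were called at all 4 stages, against 34.1% of all regions. Of all regions called at all 4 stages, 4.20% held it. In windows of 100 bp, 6 regions (3.39%) held it, against 2.15%. The core TGGGAA was in 42 windows of 200 bp (23.7%, against 15.2%) and in 7.91% of windows of 100 bp, against 6.68%, so most of the difference lay away from the summits. The head-to-head pair TGNGAA and TTCNCA with 14 to 18 bases between was in 0 of 177, which allows up to 2.12%, against 0.158% of all regions.

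The other words were near or below the share of all regions, apart from CAGGTG. RUNX words were in 24.3% of windows (25.2% of all regions), CAGCTG in 18.1% (18.3%), CAGGTG in 31.6% (23.3%), ETS in 39.5% (40.2%), GATA in 6.78% (8.07%) and TCF7 and LEF1 in 10.2% (16.0%). A match is a description of the letters and does not show binding, and degenerate sites are missed.

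Other genes of the pathway were described from a list of 46 genes by role. Promoters of 39 of them (84.8%) were called at all 4 stages, against 57.4% of all coding genes. In the full lists, of which DN is the longest, more DN than SP4 or SP8 peaks were found in 33 windows (71.7%, against 57.2%). No count with lists of equal length is given for these genes. All 8 proteases and γ-secretase subunits, which cut the receptor, were called at every stage, between percentiles 48.6 (Psenen at DN) and 98.6 (Aph1a at SP4). All 5 glycosyltransferases, which modify the receptor and tune its ligand binding, were called at every stage. Mfng stood at 87.2 at DN and at 66.4, 56.6 and 58.7 at DP, SP4 and SP8.

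Among the nuclear factors, 7 of 8 promoters were called at all 4 stages. That of Rbpj, the DNA-binding partner of the receptor, was called at DN (29.0) and DP (2.8) and at neither SP stage, with both peaks low in their lists. Maml1, a co-activator, stood at 98.9, 97.9, 96.1 and 95.5. Maml3 had the most peaks of its role at DN (91) and Maml2 at SP4 (76), in windows of 459 kb and 451 kb.

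Of the 5 ligands, 3 promoters were called at all 4 stages. Jag1 was called at none, Jag2 at DN (46.1), DP (6.3) and SP8 (36.3), and Dll4, the ligand of the thymic epithelium, stood no higher than 26.3 at any stage. Notch4, the remaining receptor, was called at DP (24.6) and SP4 (14.6). Fbxw7, which marks the cut receptor for degradation, was called at none within the 200 bp used here, and the other 7 negative regulators at all 4 stages. Of 11 further targets, Hes5 and Igf1r were called at none and the other 9 at all 4 stages. Bcl2a1b stood at 31.2 and 23.0 at DN and DP and at 87.3 and 85.7 at SP4 and SP8. Il2ra, a target in DN cells, stood at 84.8, 80.3, 92.2 and 93.4, and Myc at 66.8, 60.1, 50.5 and 43.3. These genes were named after their values were seen, apart from those not called at every stage.

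**Figure D5:**
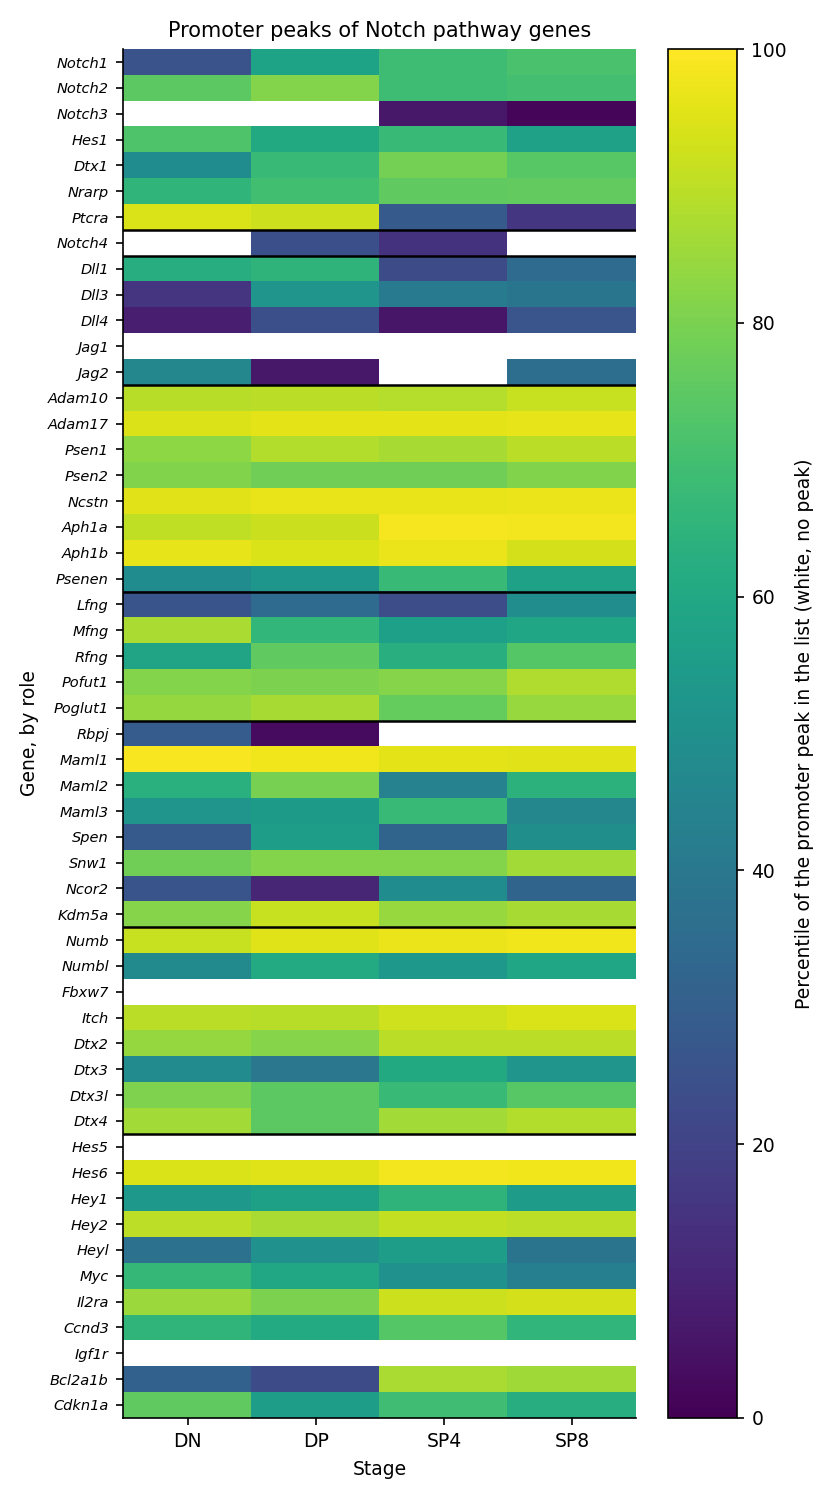
Percentile of the promoter peak (colour) at each stage (horizontal axis) for the 7 genes at the top and the 46 other pathway genes grouped by role below, with white where no peak was called. *Ptcra* turns from yellow at DN and DP (94.5 and 92.3) to blue at SP4 and SP8 (28.2 and 15.7), while the proteases and γ-secretase subunits stay between 48.6 and 98.6.

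The genes most like each of the 7 were sought by the shares of a window's regions called at each stage, over 4 stages and among genes with at least 10 regions. Nearest to *Notch1* (82.2%, 64.4%, 51.1% and 48.9% of regions called at DN, DP, SP4 and SP8) were Cd109, Gm30191 and Nek2, each at a Euclidean distance of 0.029 on shares from 0 to 1. Nearest to *Notch2* were Baiap2 (0.0099), Eftud2 and Myl10 (0.024), to *Notch3* Srgap3 (0.034), G3bp1 (0.041) and Gak (0.041), and to *Hes1* Rtn4ip1, Strbp (0.041) and Sbsn (0.058). Ass1, Gnptg (0.021) and Cmas (0.029) were nearest to *Dtx1*, Pptc7 (0.016), Ralb (0.047) and Dctn6 (0.052) to *Nrarp*, and Cox6b1 and Zfp692 (0) and Vwa5b2 (0.019) to *Ptcra*. With 4 stages and windows of 10 to 45 regions, shares can coincide between many genes.

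Marker promoters were checked against the labels of the sorts. Promoters of 5 of 5 DN markers were called at DN and DP and 4 of 5 at SP4 and SP8, with Dntt called at DN and DP alone. Of 4 annotated SP4 markers 3 were called at DN, DP and SP8 and 4 at SP4, with Zbtb7b called at SP4 alone. Of 5 SP8 markers 5 were called at DN and SP8 and 4 at DP and SP4, with Nkg7 called at DN and SP8. The other SP markers were called at every stage. Among them Cd8a was lowest at SP4 (18.7), and Ccr7, an SP4 marker, was higher at DN (98.3) than at SP4 (93.1). Of 5 myeloid markers 4 were called at DN and 2 at each other stage, with Lyz2 (88.4) and Spi1 (12.6) called at DN alone. Erythroid (2 of 5), thymic epithelial (1 of 5) and endothelial and fibroblast (2 of 5) markers had the same counts at every stage. Foxn1, Psmb11 and Klf1 were called at none. The part of myeloid or progenitor cells of the DN sort in the DN peaks at the 7 genes was not tested.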

How the data were processed

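ATAC-seq libraries of DN, DP, SP4 and SP8 thymocytes from 4 mice (16 libraries) were used as 1 peak list per stage. The authors mapped trimmed reads with BWA (mm10), took out duplicates (Picard), and kept unique proper pairs of high mapping quality. They reduced each library to the median depth, pooled the mice of a stage and ran MACS2 with a shift for transposase cuts, a 5% FDR and a blacklist. MACS2 and mm10 are also in the submitters' processing notes. Depth per library is not given in the files used here. The deposited lists give interval, summit position and score. The authors' MACS2 run also gave each peak a fold enrichment at its summit (a ratio to local background) and a −log10 q-value, both deposited and used here. The −log10 p-value was not used. The score, a value the authors deposited, follows the q-value and was not used.

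All lists lay on chromosomes 1 to 19, with 0 peaks past a chromosome end of mm10. Peaks of the 4 lists sharing at least 1 bp were merged, and a region was called at a stage with a peak in it. Height was ranked within a list (the highest peak of the region). Genes were GENCODE M21, and a promoter was the 200 bp before a coding start site or the 5′ end of the gene (any start site for the annotation of regions). Motifs were matched without mismatch on both strands in 200 bp around the highest summit. Gene positions and sequences are mm10 (GRCm38), counted from 1, and the RefSeq promoter sequences, present for 6 of 7 genes, were checked against the genome. The RefSeq start differed from the GENCODE start sites for *Notch3* and *Dtx1*. Shares have 95% Wilson intervals. Since the lists are pooled there was no test between stages, and counts and shares are set beside those of all regions or coding genes. Python 3.11.15, pandas 2.3.3, numpy 2.4.6 and scipy 1.17.1 were used, and the merging and window steps were tested on simulated data.

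The 7 genes and the gene lists were chosen with earlier results of these data known. Regions named were those over a start site, the highest outside it and, at most 3 per gene, those at or above the 75th percentile at a stage and not called at all 4. Regions of the 30-point criterion, and any other feature, were chosen after their values were seen. Pathway genes were named where a promoter was not called at all 4 stages or where peak counts were extreme in their role. The 3 genes nearest by Euclidean distance were named. Further marker lists are not reported here. Alternatives covered the window, q-value, list length, merging, height, promoter and motif window.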

Additional observations from a re-analysis of the deposited data

How the results depend on the processing

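No paired analysis was possible because each list used here pools the 4 mice of a stage, and for the same reason no mouse could be left out. Values per mouse were not analysed here. Of 71 values recomputed for the main results, 56 stayed within 1.5 times the count or within the interval of the share. A window of 5 kb in place of 20 kb gave 98 DN, 74 DP and 67 SP4 peaks, 111 regions and 3 regions lower at both SP stages, and a window of 50 kb gave 236 DN, 181 DP, 165 SP4 and 152 SP8 peaks and 273 regions. With equal numbers of peaks per list 10.1% of regions were called at DN alone, and with peaks joined where summits lay within 150 bp 23.9% were called at all 4 stages. A limit of 40 points, added after seeing the data as was one of 20 points, gave 3 regions lower at both SP stages. A promoter of 1000 bp gave 26 regions at a promoter, and windows of 100 bp gave 7.91% with the RBPJ core. Ranked by q-value, the difference between the SP mean and the DN and DP mean changed sign in 3 regions, to −2.00 points at the *Notch3* region at +23.6 kb, −3.32 at the 5′ end of *Hes1* and 0.077 at the *Dtx1* region at +26.1 kb. The cause of these changes was not tested. Of the counts per gene 33 moved, 15 at 5 kb, 16 at 50 kb and 2 with equal numbers.

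Lists pooled over mice carry no replicate error, so differences between stages describe 1 list each. A region without a call was under the caller's threshold, which does not show that it was closed, and the DN list was the longest. Fold enrichment and q-value ranked the peaks of *Notch1* differently.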
